A study of Mus musculus with 18 samples.

Results

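The genes described here encode the core enzymes and cofactors of mRNA decay: the CCR4-NOT complex and the other enzymes that shorten poly(A) tails, the decapping enzyme and its activators, the exonucleases that degrade decapped RNA, the RNA exosome, and the factors of nonsense-mediated mRNA decay (NMD). A list of 36 gene symbols, chosen by function and not by measured values, was matched to the probe sets of the array that carry 1 gene symbol. Of the 36 genes 33 were found among 18194 gene symbols, and for each gene the brightest probe set on average was used. Cnot1, the scaffold of CCR4-NOT, shares its probe sets with another symbol, and Upf3a and Upf3b, NMD factors that bind exon junction complexes, were not named by the annotation used here, so that these 3 genes were not analysed.

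Satellite cells, the stem cells of skeletal muscle, were isolated by FACS with syndecan-3 as the marker from the tibialis anterior muscle of female mice labelled as 3-6 months old (3 months in the methods of the sort), either uninjured or 12 h or 48 h after injection of 1.2% barium chloride, which destroys muscle fibres. The WT mice were C57Bl/6 x DBA2 and the Sdc4-/- mice, which lack the heparan sulfate proteoglycan syndecan-4, were C57Bl/6, so that genotype and strain cannot be told apart. RNA went through repeated rounds of T7 amplification and was hybridized to Affymetrix arrays, 3 in each of 6 groups and 18 in all. The authors removed 1 uninjured WT array because it clustered with the WT 12 h group. Replicate 3 is assumed to be that array, and 17 arrays were used here.

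In most mRNAs decay starts with the shortening of the poly(A) tail. The body is then degraded from one end after removal of the cap, or from the other by the exosome, while NMD removes mRNAs with premature stop codons. Quiescent stem cells hold some mRNAs for later use, and decay of existing mRNAs lets a cell change its proteins quickly when it leaves quiescence.

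All values are log2 GCRMA values, normalized probe set intensities on which a difference of 1 equals a 2-fold change. Values of about 2 to 3 lie at the lower end of the scale, where their order is not reliable, so that a fall to such values may be larger than its fold change. Levels are compared between arrays for 1 probe set, never between genes. A gene was called when limma's Benjamini-Hochberg adjusted p over all 45101 probe sets was under 0.05. The labels do not say whether replicates came from separate animals, so that p-values measure the spread between these samples. Averaged over the 17 arrays 18 of the 33 genes reached a level of 4, and 11 stayed under 4 in every group mean.

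The groups also differed in measures other than these genes. Probe sets with a log2 value over 5 numbered 7213 to 7620 on the WT uninjured arrays, 2832 to 3982 at 12 h and 5123 to 5564 at 48 h, and 7137 to 7864, 5076 to 5565 and 7294 to 7723 on the Sdc4-/- arrays at the same times. The mean level of 18 hybridization-control probe sets, which report RNA added to each sample in equal amounts, was 7.86 to 8.94 in WT uninjured, 13.5 to 14.3 in WT 12 h and 11.7 to 12.5 in WT 48 h arrays, and on Sdc4-/- arrays it lay between 8.74 and 12.3. The mean level of 12 satellite cell markers was 4.54 to 4.65 in WT uninjured cells and 3.26 to 3.50 at 12 h, with 5 of the 12 lower, among them Pax7. Pax7, a defining marker, had a group mean of 4.87 in WT uninjured cells and of 2.40 to 2.60 in the other groups. Macrophage markers (6 genes) had a mean level of 4.74 to 7.84 in WT uninjured, 3.31 to 4.05 in WT 12 h and 9.11 to 9.30 in WT 48 h arrays, and of 7.46 to 9.54 over all Sdc4-/- arrays. The mean of 6 fibroblast markers went from 7.68 to 8.41 in WT uninjured to 3.45 to 4.67 at 12 h, with 3 of 6 lower, and that of 5 endothelial markers from 5.99 to 7.61 to 2.84 to 3.75, with 3 of 5 lower. The mean of 4 pericyte and smooth muscle markers was 8.69 to 10.2 in WT uninjured and 5.38 to 6.95 in WT 12 h arrays, with 2 of 4 lower. A control probe set for the middle of Actb was at 8.13 and 7.78 in WT uninjured and at 4.54, 3.25 and 3.69 in WT 12 h arrays. WT 12 h replicate 2 stood apart at the 3′ ends, with Actb at 3.98 (11.8 and 8.37 on the other WT 12 h arrays) and Gapdh at 4.64 (9.77 and 9.76). Without that array the WT 12 h changes of Cnot7 and Pan3 were still called in a fit of the rest. Sdc4 itself, the deleted gene, had group means of 4.64, 4.03 and 7.66 in WT cells (uninjured, 12 h and 48 h) and of 4.20, 4.72 and 4.92 in Sdc4-/- cells, and where its probes lie relative to the deletion was not analysed here. The hybridization controls were entered as a covariate in a further fit, and the part of the cell type markers and of RNA quality in the results below was not tested. In sorted bulk samples of this kind, fewer cells of a type and less RNA per cell cannot be told apart.

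At 12 h after injury 5 of the 6 measured genes for deadenylase enzymes were lower in WT cells, all but Pan2. These were the 4 catalytic subunits of CCR4-NOT and Parn, and lower as well were Cnot2, Cnot4, Pan3, the decapping enzyme Dcp2, the exosome subunit Exosc8 and the NMD adaptor Upf2. The calls of Cnot8 and Parn were lost in most fits that each left out 1 array. Both were also lost with the removed array kept in the fit and after further quantile normalization. Among all genes with a mean of at least 4, 44.6% were lower, so that the 5 of 6 deadenylases are not read as an excess. Of the 33 genes 11 were lower, 33.3%, where 20.8% of all genes were lower. Dcp1b, Exosc5 and Upf1 were higher, 3 genes or 9.09%, where 19.6% of all genes were higher, and all 3 rises were below 1 on the log2 scale. After a shift of each array to a common 75th percentile 11 were lower and 7 higher. The median change of the 33 genes was −0.24 and that of all genes 0.09.

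**Figure D1:**
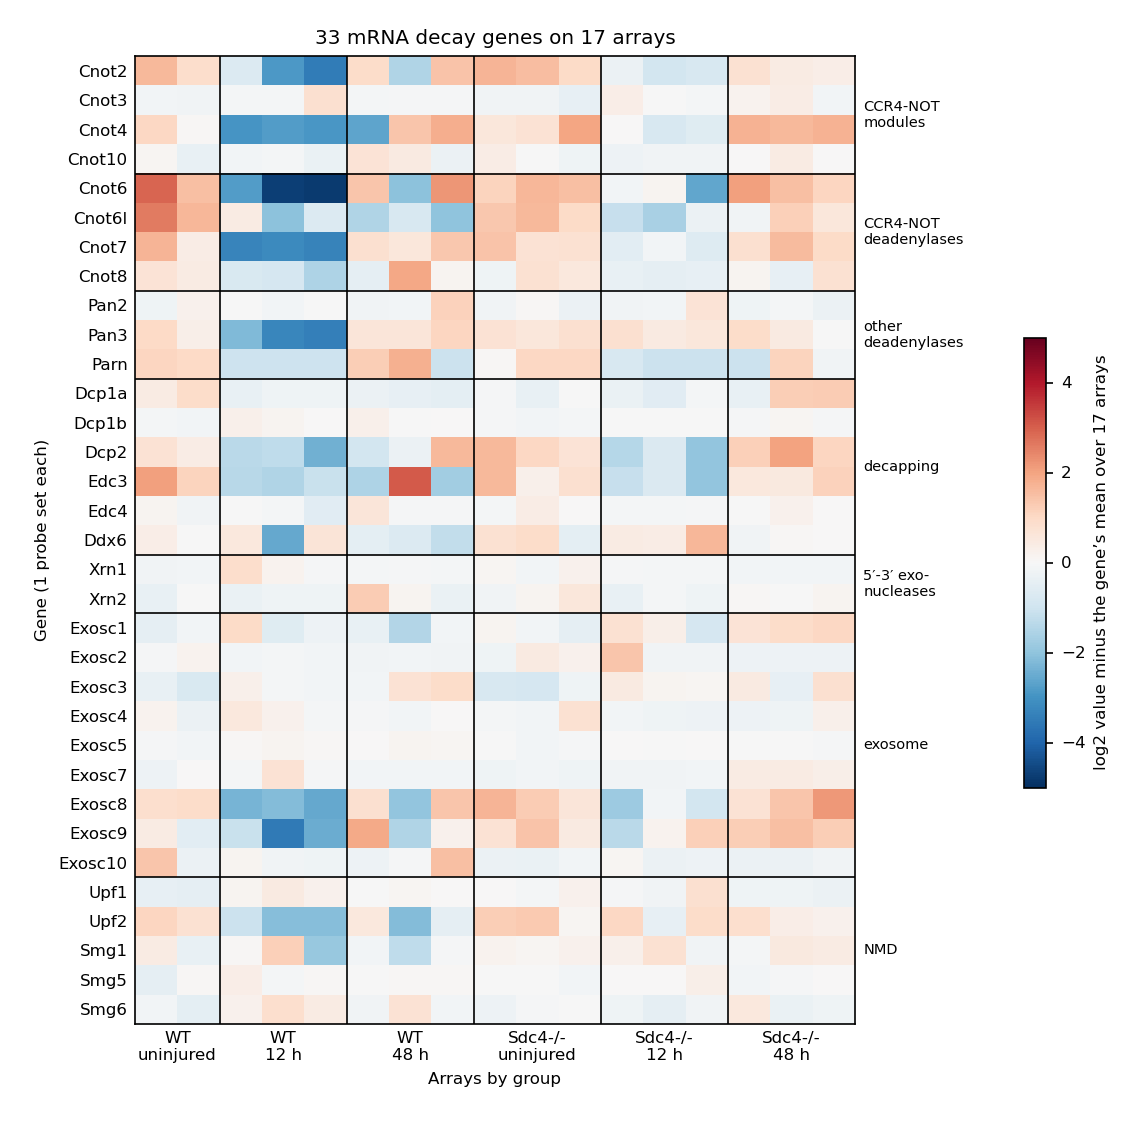
Level of the 33 mRNA decay genes on each of 17 arrays (columns, by group), as the log2 value minus the mean of the gene over the 17 arrays, with genes ordered by role. The WT 12 h columns hold the darkest blue cells, in the CCR4-NOT deadenylases, Cnot2, Cnot4, Pan3 and Exosc8, while most exosome genes and both exonucleases vary little between groups.

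The shares also depended on the level of the genes. Among genes with a mean of at least 4, 44.6% of 6279 were lower at 12 h in WT cells and 3.34% were higher, and among the 18 decay genes at that level 10 were lower and 1 was higher. The median change was −2.52 for these 18 and −1.56 for all genes at that level. The falls of the decay genes thus occurred on arrays where many expressed genes fell. A fit that took the hybridization-control level as a covariate called none of the 33 genes at 12 h in WT cells. That level was 7.86 to 8.94 in WT uninjured and 13.5 to 14.3 in WT 12 h arrays, far apart and narrow within each group. This fit can thus hardly tell the level from the time after injury, and nothing is concluded from the loss of calls. The changes in that fit were as large as without the covariate for some genes (Cnot7 −4.44, Pan3 −4.35, Cnot4 −5.59) and smaller for others (Cnot6 −2.34, Exosc8 −0.46).

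The deadenylases of CCR4-NOT come in 2 families, Cnot6 and Cnot6l with an exonuclease-endonuclease-phosphatase fold, and Cnot7 and Cnot8 of the DEDD family, and each complex holds 1 enzyme of each. Cnot6 (probe set 1426682_at) was at 10.57 and 9.17 on the WT uninjured arrays, at 4.88, 2.95 and 2.88 at 12 h and at 9.07, 5.60 and 9.89 at 48 h. In Sdc4-/- cells Cnot6 was at 8.79, 9.34 and 9.19 uninjured, at 7.52, 7.81 and 5.09 at 12 h and at 9.70, 9.18 and 8.73 at 48 h. All 3 WT 12 h arrays lay below all other WT arrays, and at 12 h 2 of 3 Sdc4-/- arrays stayed above 7. The WT change at 12 h was −6.30 (SE 1.14, limma adjusted p = 0.00125), or 78.6-fold, the largest fall among the 33 genes. Its paralogue Cnot6l (1425480_at) fell by 2.90 in WT cells (SE 0.66, adjusted p = 0.00496).

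Cnot7 (1423641_s_at) was at 7.67 and 6.37 on the WT uninjured arrays, at 2.68, 2.81 and 2.64 at 12 h and at 6.80, 6.56 and 7.34 at 48 h. In Sdc4-/- cells Cnot7 was at 7.42, 6.71 and 6.75 uninjured, at 5.44, 5.86 and 5.35 at 12 h and at 6.78, 7.57 and 6.92 at 48 h. The WT 12 h arrays were at the lower end of the scale and did not overlap any other group, whereas the Sdc4-/- 12 h arrays lay between them and the rest. Cnot7 fell by 4.30 in WT cells (SE 0.37, adjusted p = 1.16e-05, 19.7-fold). Its paralogue Cnot8 (1451102_at) was at 4.73 and 4.44 in WT uninjured cells and at 3.29, 3.20 and 2.49 at 12 h, a fall of 1.59 (SE 0.57, adjusted p = 0.0448) that was called in 5 of 17 fits that each left out 1 array.

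Among the other CCR4-NOT subunits, Cnot2 and Cnot3 form the module that gives the complex its name, Cnot4 is a ubiquitin ligase and Cnot10 binds the end of the scaffold. Cnot2 (1436980_x_at) was at 9.40 and 8.66 on the WT uninjured arrays, at 7.10, 4.88 and 4.27 at 12 h and at 8.69, 6.28 and 9.19 at 48 h, and in Sdc4-/- cells at 9.49, 9.30 and 8.72 uninjured, at 7.48, 6.87 and 6.97 at 12 h and at 8.55, 8.17 and 8.12 at 48 h. At 12 h the arrays of each genotype lay below its uninjured arrays, though replicate 1 of the WT 12 h group stood well above the other 2. The change was −3.61 in WT (SE 0.84, adjusted p = 0.00555) and −2.07 in Sdc4-/- cells (SE 0.75, adjusted p = 0.14), the latter not called. Cnot4 (1436645_a_at) was at 7.75 and 6.80 on the WT uninjured arrays, at 3.79, 3.93 and 3.80 at 12 h and at 4.08, 8.12 and 8.54 at 48 h, and in Sdc4-/- cells at 7.30, 7.43 and 8.68 uninjured, at 6.76, 5.93 and 6.13 at 12 h and at 8.46, 8.34 and 8.47 at 48 h. The WT 12 h arrays were tight and low, and replicate 1 at 48 h was still near them. Cnot4 fell by 3.43 in WT cells (SE 0.98, adjusted p = 0.017). The probe sets used for Cnot3 and Cnot10 were not called in any comparison, with WT changes at 12 h of 0.36 and −0.06. For Cnot10, 2 dimmer probe sets with means under 4 fell in WT cells at 12 h, 1459756_at by 2.53 (adjusted p = 0.000173) and 1459757_x_at by 2.78 (adjusted p = 4.76e-05), and their genotype differences of −1.64 and −2.13 were called (adjusted p = 0.0386 and 0.00689). A further one, 1453654_at, rose by 1.34 (adjusted p = 0.0137).

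**Figure D2:**
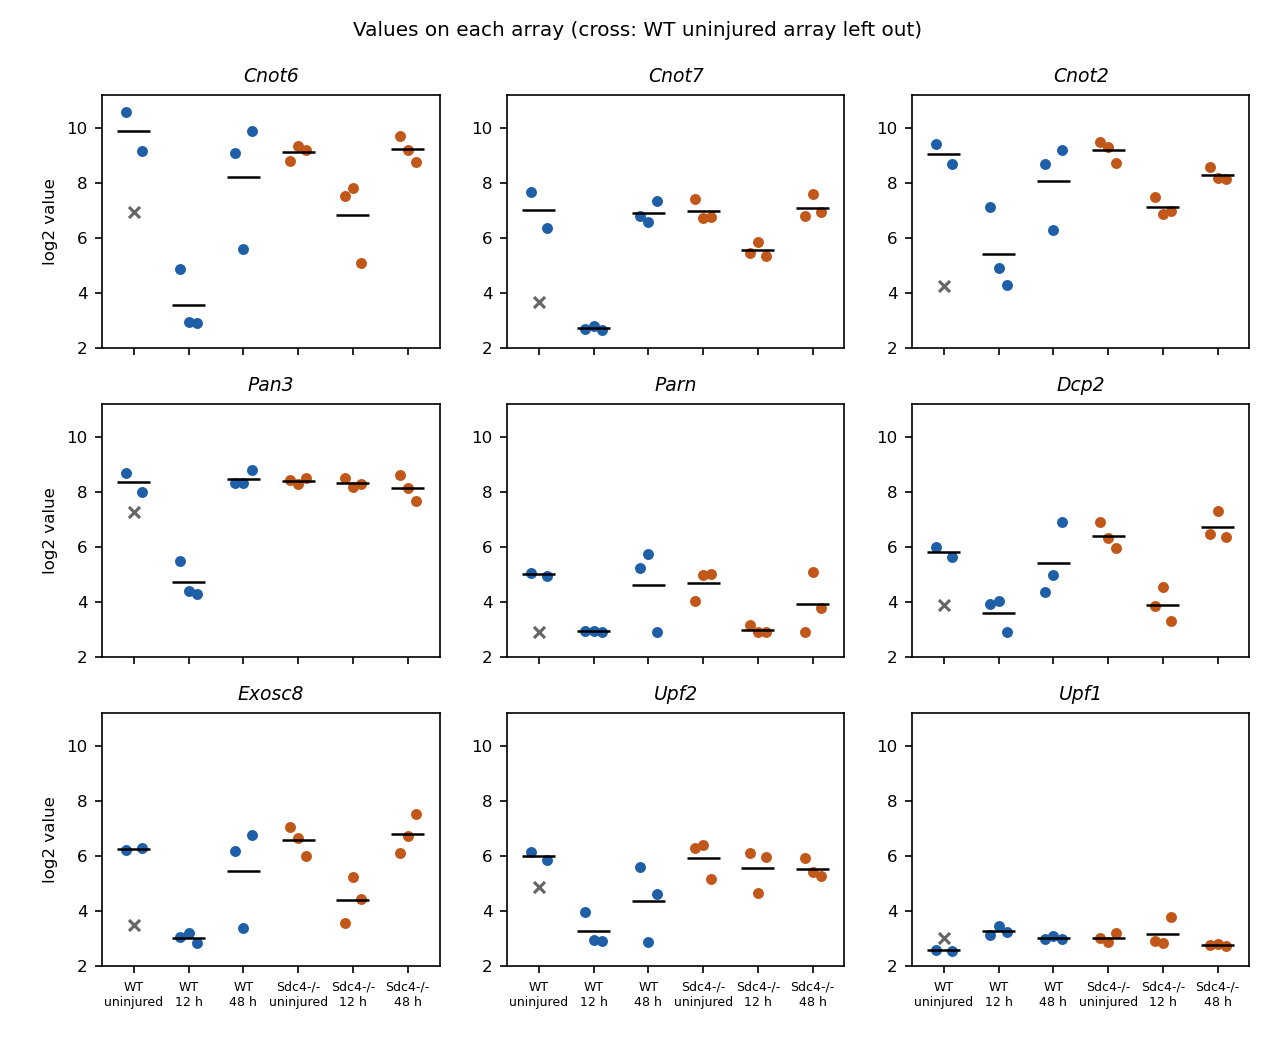
The log2 value of 9 genes on each array by genotype and time (points), with group means (bars) and the WT uninjured array that was left out (grey cross). Among the arrays used Cnot7 and Pan3 are lowest in the WT 12 h group, Dcp2 is low at 12 h in both genotypes, and Upf1 lies under 4 on every array.

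Of the deadenylases outside CCR4-NOT, Pan2 is the enzyme of the PAN2-PAN3 complex, Pan3 recruits it to poly(A)-binding protein, and Parn trims the tails of small RNAs and some mRNAs. Pan3 (1447895_x_at) was at 8.68 and 8.0 on the WT uninjured arrays, at 5.50, 4.41 and 4.27 at 12 h and at 8.30, 8.30 and 8.78 at 48 h. In Sdc4-/- cells Pan3 was at 8.42, 8.27 and 8.51 uninjured, at 8.49, 8.15 and 8.27 at 12 h and at 8.59, 8.13 and 7.66 at 48 h. The WT 12 h arrays stood alone, more than 2 log2 units below every other array used. Pan3 fell by 3.61 in WT cells (SE 0.36, adjusted p = 2.47e-05) and its change in Sdc4-/- cells was −0.10 (SE 0.32, adjusted p = 0.888). Parn (1437334_x_at) was at 5.05 and 4.95 on the WT uninjured arrays, at 2.94, 2.93 and 2.92 at 12 h and at 5.21, 5.74 and 2.90 at 48 h, and in Sdc4-/- cells at 4.04, 4.99 and 5.02 uninjured, at 3.17, 2.89 and 2.91 at 12 h and at 2.89, 5.09 and 3.78 at 48 h. Both 12 h groups were near 3, the lower end of the scale. The Parn change was −2.08 in WT (SE 0.73, adjusted p = 0.0409) and −1.69 in Sdc4-/- cells (SE 0.65, adjusted p = 0.166), and the WT call held in 7 of 17 fits that each left out 1 array. The other probe set of Parn, 1425422_a_at, with a mean of 2.74, had a WT change of 0.31 that was not called (adjusted p = 0.295). Pan2 was not called, with a WT change of −0.06.

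Dcp2 removes the cap, Dcp1a and Dcp1b activate it, Edc3 and Edc4 are enhancers and Ddx6 is an RNA helicase that links deadenylation to decapping. Dcp2 (1455070_at) was at 5.98 and 5.64 on the WT uninjured arrays, at 3.92, 4.02 and 2.89 at 12 h and at 4.36, 4.99 and 6.90 at 48 h, and in Sdc4-/- cells at 6.90, 6.31 and 5.96 uninjured, at 3.86, 4.54 and 3.30 at 12 h and at 6.46, 7.30 and 6.35 at 48 h. In both genotypes the 12 h arrays lay below the uninjured arrays without overlap. Dcp2 fell by 2.20 in WT (SE 0.65, adjusted p = 0.0193) and by 2.49 in Sdc4-/- cells (SE 0.58, adjusted p = 0.0224), and the genotypes differed by 0.29 (SE 0.87, adjusted p = 0.849). The WT call was lost without either uninjured WT array or without WT 12 h replicate 3. Dcp1b (1437572_at) was at 4.21 and 4.18 on the WT uninjured arrays, at 4.55, 4.45 and 4.31 at 12 h and at 4.54, 4.29 and 4.32 at 48 h, and between 4.17 and 4.39 on all Sdc4-/- arrays. Its rise of 0.25 in WT cells (SE 0.09, adjusted p = 0.0482) was small in size and was called in 4 of 17 fits that each left out 1 array. The paralogue Dcp1a was at 3.36 and 3.85 in WT uninjured cells and at 2.55, 2.74 and 2.72 at 12 h (change −0.93, adjusted p = 0.0741). Edc3 had a change of −2.91 with an SE of 1.09 (adjusted p = 0.052). Edc4 and Ddx6 had WT changes of −0.22 and −0.61 and were not called in any comparison.

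The probe sets used for the 5′-3′ exonucleases were not called in any comparison. Xrn2, the nuclear enzyme (1450777_at), was at 3.34 and 3.71 on the WT uninjured arrays, at 3.37, 3.52 and 3.50 at 12 h and at 4.97, 3.86 and 3.39 at 48 h, and in Sdc4-/- cells between 3.34 and 4.28 on all 9 arrays. Its WT change at 12 h was −0.06 (SE 0.35). Xrn1, the cytoplasmic enzyme that degrades decapped mRNA (1442141_at), was under 4 on every array, at 2.74 and 2.75 in WT uninjured cells and at 3.78, 3.08 and 2.85 at 12 h (change 0.49, adjusted p = 0.0676). With levels this low, a change in these 2 genes could not be detected reliably on these arrays.

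The exosome is a ring of RNase PH-like subunits (here Exosc4, Exosc5, Exosc7, Exosc8 and Exosc9) with a cap of RNA-binding subunits (Exosc1, Exosc2 and Exosc3) and the associated nuclease Exosc10. Exosc8 (1428291_at) was at 6.19 and 6.30 on the WT uninjured arrays, at 3.05, 3.21 and 2.82 at 12 h and at 6.18, 3.38 and 6.74 at 48 h, and in Sdc4-/- cells at 7.06, 6.64 and 5.98 uninjured, at 3.56, 5.22 and 4.45 at 12 h and at 6.10, 6.73 and 7.54 at 48 h. Replicate 2 of the WT 48 h group was close to the WT 12 h arrays and apart from its own group. Exosc8 fell by 3.22 in WT cells (SE 0.81, adjusted p = 0.00879), and without WT uninjured replicate 2 the adjusted p was 0.0518. Exosc9 was at 7.12 and 6.19 in WT uninjured cells and at 5.58, 3.19 and 4.23 at 12 h (change −2.32, SE 0.94, adjusted p = 0.0695). Exosc5 (1417167_at) lay between 2.38 and 2.67 on all 17 arrays, and its called rise of 0.18 in WT cells (SE 0.06, adjusted p = 0.0354) was within the lower end of the scale. The other 6 subunits were not called at 12 h in WT cells, with changes from −0.62 (Exosc10) to 0.57 (Exosc3).

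In NMD the helicase Upf1 is bound by Upf2, phosphorylated by Smg1, and then recruits Smg5 and the endonuclease Smg6. Upf2 (1435030_at) was at 6.15 and 5.83 on the WT uninjured arrays, at 3.97, 2.93 and 2.92 at 12 h and at 5.60, 2.88 and 4.60 at 48 h, and in Sdc4-/- cells at 6.29, 6.39 and 5.14 uninjured, at 6.10, 4.66 and 5.98 at 12 h and at 5.92, 5.41 and 5.27 at 48 h. All Sdc4-/- arrays lay above the WT 12 h arrays, and WT 48 h replicate 2 lay among the latter. Upf2 fell by 2.72 in WT cells (SE 0.70, adjusted p = 0.00962), and its change in Sdc4-/- cells was −0.36 (SE 0.62, adjusted p = 0.784). The genotype difference of −2.35 was not called (SE 0.93, adjusted p = 0.13). Upf1 (1419685_at) was at 2.59 and 2.55 on the WT uninjured arrays, at 3.13, 3.45 and 3.22 at 12 h and at 2.97, 3.09 and 2.99 at 48 h, and between 2.71 and 3.78 in Sdc4-/- cells. Its rise of 0.70 (SE 0.22, adjusted p = 0.0264) was thus at the lower end of the scale, and in the fit with that covariate the change was −0.75 (adjusted p = 0.435). The probe sets used for Smg1, Smg5 and Smg6 had WT changes of −0.24, 0.31 and 0.79 and were not called in any comparison.

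In Sdc4-/- cells fewer of the genes passed at 12 h. Cnot6l, Cnot7 and Dcp2 were lower by the probe sets used. They are 3 of 33 genes or 9.09%, where 7.23% of all genes were lower. None was higher, where 1.48% of all genes were higher. The shift to a common 75th percentile gave 3 lower and 5 higher genes, and further quantile normalization 0 lower and 2 higher. Cnot6l went from 7.34, 7.64 and 6.98 in uninjured cells to 4.87, 4.38 and 5.71 at 12 h, a fall of 2.33 (SE 0.59, adjusted p = 0.0337). Cnot7 fell by 1.41 (SE 0.33, adjusted p = 0.0244). Probe sets other than those used were lower for Exosc8 (1420115_at, −1.34, adjusted p = 0.00153) and Cnot6 (1426685_a_at, −2.31, adjusted p = 0.00503). The same held for Cnot4 (1420999_at, −0.44, adjusted p = 0.0185) and Cnot6l (1451723_at and 1434311_at). For Exosc10 1437294_at was higher (0.53, adjusted p = 0.031). All of these but Exosc8 1420115_at had a mean under 4. The median change of the 33 genes was −0.18 and that of all genes 0.04. With all 18 arrays in the fit none of the 3 was called, with adjusted p of 0.0702, 0.329 and 0.0507 for Cnot6l, Cnot7 and Dcp2.

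**Figure D3:**
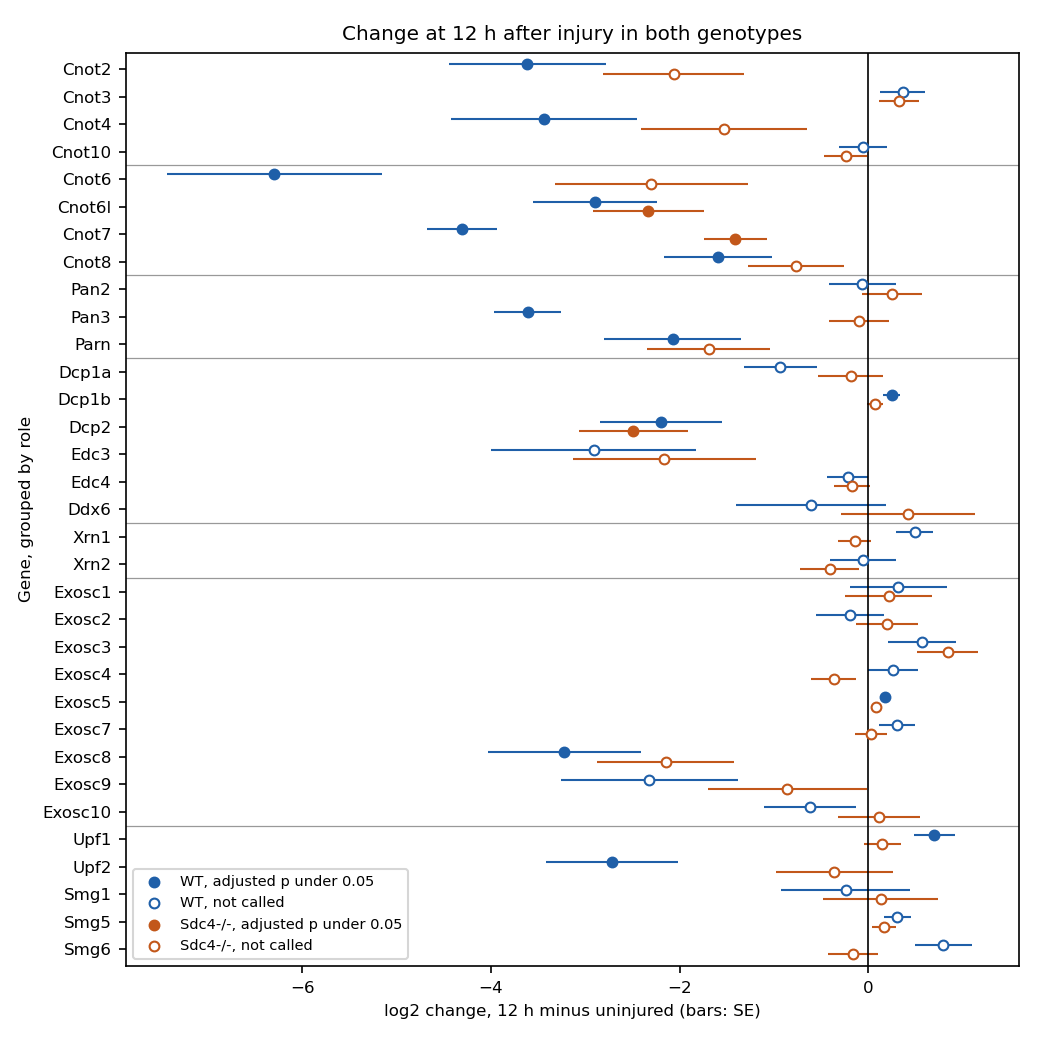
Change at 12 h against uninjured cells of the same genotype on the log2 scale, with standard errors, for the 33 genes in order of role (filled points, adjusted p under 0.05). The WT points of Cnot6, Cnot7 and Pan3 lie at −6.30, −4.30 and −3.61, and for Cnot7 and Pan3 the error bars of the genotypes are far apart.

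The difference between the genotypes in the 12 h change was tested itself, as an interaction, and it was called for Cnot7 and Pan3. The Cnot7 change was lower by 2.89 on the log2 scale in WT than in Sdc4-/- cells (difference −2.89, SE 0.50, adjusted p = 0.00407). For Pan3 the difference was −3.52 (SE 0.48, adjusted p = 0.00115). These 2 of 33 genes are 6.06%, where 6.32% of all genes had a lower change in WT cells, so that the share was near that of all genes. None of the 33 had a higher change in WT cells, where 5.7% of all genes had one, and further quantile normalization gave 2 in each direction. Both calls held in each of the 17 fits that left out 1 array. With all 18 arrays Pan3 kept its call (−3.15, adjusted p = 0.00878) and Cnot7 did not (−1.78, adjusted p = 0.385), and in the fit with hybridization controls as a covariate the differences were −3.01 for Cnot7 (adjusted p = 0.236) and −4.14 for Pan3 (adjusted p = 0.0706). Cnot6 had a difference of −4.00 with an SE of 1.53 that was not called (adjusted p = 0.119).

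Both calls also rest on the probe set used. The suffixes of 1423641_s_at and 1447895_x_at mark probe sets with probes that can match other transcripts. The same holds for the probe sets used for Cnot2 (1436980_x_at) and Parn (1437334_x_at). For Cnot7 a second probe set, 1430519_a_at, had a WT change of −1.11 (adjusted p = 0.54) and a genotype difference of −1.78 (adjusted p = 0.545). For Pan3 the probe set 1428768_at, with a mean of 4.89, fell by 2.15 in WT cells (adjusted p = 0.00811) and had a genotype difference of −0.80 (adjusted p = 0.483). A low probe set of Pan3, 1458465_at, was higher in WT cells at 12 h (2.15, adjusted p = 0.0013), and its genotype difference was called in the opposite direction (1.78, adjusted p = 0.0482). Averaged over all probe sets of each gene the genotype differences were −1.56 for Cnot7 (adjusted p = 0.126) and −0.48 for Pan3 (adjusted p = 0.214), neither called.

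Over the 33 genes there were 86 probe sets, and 25 genes had several. In WT cells at 12 h 16921 of all 45101 probe sets were called, lower or higher. Their shares in each direction are not given here. The counts of further probe sets below are thus a description, and are not read as support for the falls or the rises. The 11 genes that were lower in WT cells at 12 h had 25 further probe sets, of which 8 were lower, 2 were higher and 15 were not called. Of these 25, 19 had a mean under 4. Of the 6 with a mean of at least 4, 5 were lower as well, among them Cnot2 1456576_x_at (−3.76, adjusted p = 0.0318), Cnot6 1426683_at (−2.14, adjusted p = 0.0474) and Exosc8 1420115_at (−1.08, adjusted p = 0.00251). The second higher probe set was Upf2 1445777_at, with a mean of 3.07 and a change of 0.98 (adjusted p = 9.9e-06), and its genotype difference was called as higher in WT (0.93, adjusted p = 0.000497). The genes that were not called in WT cells at 12 h had 2 further probe sets that were lower, both of Cnot10, and 7 that were higher, of Cnot10, Dcp1a, Xrn2, Exosc10 (2 probe sets), Smg1 and Smg6. All 9 had a mean under 4. Among the higher ones were Xrn2 1422843_at (0.65, adjusted p = 0.0387) and Smg1 1442925_at (0.71, adjusted p = 0.000475), the latter with a called genotype difference of 0.55 (adjusted p = 0.0341).

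By the probe sets used, Cnot6l alone was lower in WT cells at 48 h than in uninjured cells, 1 of 33 genes or 3.03%, where 9.39% of all genes were lower, and none was higher, where 5.47% of all genes were higher. The shift to a common 75th percentile gave 1 lower and 6 higher genes, and further quantile normalization 0 lower and 2 higher. Cnot6l was at 8.59 and 7.67 on the WT uninjured arrays, at 6.43, 3.96 and 5.32 at 12 h and at 4.52, 5.19 and 3.99 at 48 h, and in Sdc4-/- cells at 5.82, 7.20 and 6.56 at 48 h. Its WT 48 h arrays lay below its uninjured arrays and overlapped its 12 h arrays. The fall at 48 h was 3.56 (SE 0.66, adjusted p = 0.00425), and without WT uninjured replicate 1 the adjusted p was 0.0551. Its paralogue Cnot6 had a change of −1.68 at 48 h by the probe set used, which was not called (adjusted p = 0.36). In Sdc4-/- cells Cnot6l had a change of −0.79. Other probe sets, with means under 4, were lower in WT cells at 48 h. These were Cnot6 1426685_a_at (−1.82, adjusted p = 0.0227), Cnot6l 1434311_at (−2.43, adjusted p = 0.00203), and Cnot10 1459756_at (−2.14, adjusted p = 0.00177) and 1459757_x_at (−2.52, adjusted p = 0.000287). Upf2 1445777_at and Smg1 1442925_at were higher (0.46 and 0.37, adjusted p = 0.00369 and 0.0499). The genotype difference of Cnot6l at 48 h was −2.77 (SE 0.88, adjusted p = 0.109), also not called.

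Between 12 h and 48 h in WT cells 6 genes rose, namely Cnot2, Cnot4, Cnot6, Cnot7, Pan3 and Exosc8. They are 18.2% of the 33, where 9.27% of all genes were higher, and none was lower, where 5.9% of all genes were lower. All 6 had a mean of at least 4. The share of all genes at that level is not given here for this comparison, so that no excess of rises is read from these shares. Further quantile normalization gave 2 lower genes beside 6 higher ones. Cnot7 rose by 4.18 (SE 0.33, adjusted p = 6.07e-06), Pan3 by 3.73 (SE 0.32, adjusted p = 1.06e-05) and Cnot6 by 4.62 (SE 1.02, adjusted p = 0.0106). These 3 were called in each of the 17 fits that left out 1 array, and with all 18 arrays. Cnot2 rose by 2.64, Cnot4 by 3.07 and Exosc8 by 2.41, with adjusted p of 0.0376, 0.0395 and 0.0487. Their arrays were uneven: WT 48 h replicate 2 was low for Cnot2 and Exosc8, and replicate 1 was low for Cnot4. The median change of the 33 genes was 0.41 and that of all genes −0.06. This comparison shares its 12 h arrays with the comparison of 12 h with uninjured cells.

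In Sdc4-/- cells at 48 h no gene was called in either direction, where 2.59% of all genes were lower and 2.65% were higher. At an unadjusted limma p under 0.05 there were 0 lower and 4 higher genes (Dcp1a, Exosc1, Exosc3 and Exosc7), and an ANOVA without moderation, at 2-fold or more and a p of 0.01 or less, gave 0. Exosc1 was at 4.51, 4.27 and 3.95 uninjured and at 5.08, 5.31 and 5.41 at 48 h (change 1.02, SE 0.46, adjusted p = 0.322). Exosc7 was at 3.37, 3.48 and 3.37 uninjured and at 4.00, 4.00 and 3.89 at 48 h (change 0.56, SE 0.17, adjusted p = 0.0996). Neither rise was called. The arrays of these genes did not overlap between these times. The shares of all genes without overlap, or at an unadjusted p under 0.05, are not given here, so that no rise is read from these values.

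Before injury 0 of 33 genes were lower in Sdc4-/- cells, where 2.96% of all genes were lower, and 0 higher, where 1.32% were higher. The limma fit gave 0 genes at an unadjusted p under 0.05 as well, and the ANOVA without moderation gave 0. The differences ran from −0.81 (Cnot6l) to 0.92 (Exosc9). In the 48 h change the genotypes differed for none of the 33, where 3.64% of all genes had a lower and 1.03% a higher change in WT cells. At an unadjusted p under 0.05 there were 3 lower (Cnot6l, Dcp1a and Exosc7) and 1 higher (Upf1), and the ANOVA without moderation gave 1. The share of all genes at that unadjusted p is not given here.

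**Figure D4:**
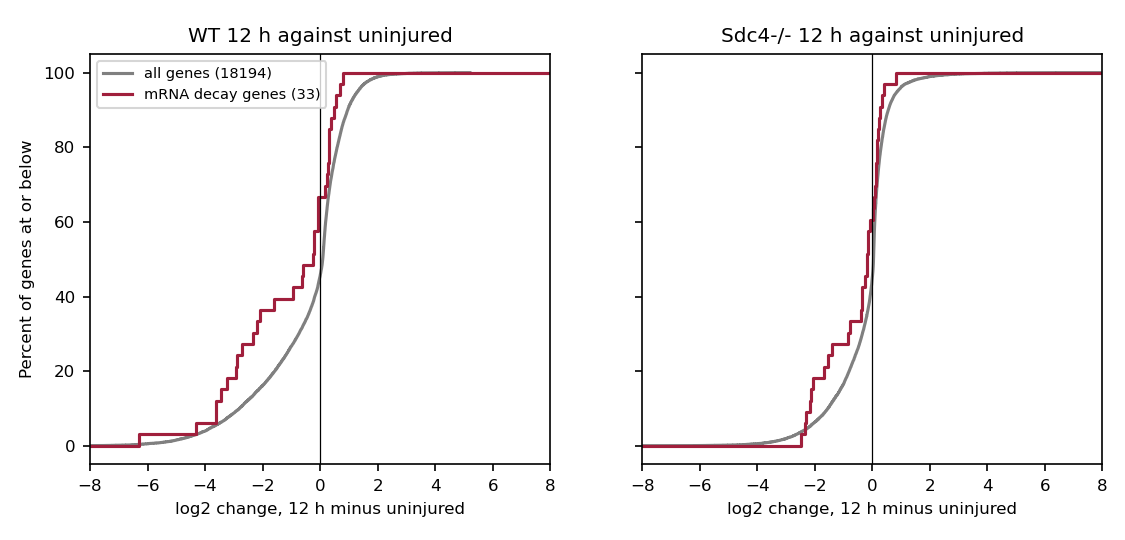
Cumulative distribution of the 12 h change on the log2 scale for the 33 mRNA decay genes (red) and all 18194 genes (grey), in WT (left) and Sdc4-/- cells (right). In WT cells the red line lies above the grey one from about −4 to 0, and both medians are near 0 (−0.24 and 0.09).

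The removed WT uninjured array bears on every comparison with uninjured WT cells. On that array Cnot2 was at 4.23, Cnot4 at 4.59, Cnot7 at 3.68, Cnot8 at 3.12, Parn at 2.91, Dcp2 at 3.89 and Exosc8 at 3.48, all below the other WT uninjured arrays. Cnot6 at 6.95, Cnot6l at 6.20, Pan3 at 7.25 and Upf2 at 4.88 lay below them too. Its hybridization-control level was 12.8. With all 18 arrays 5 of the 33 genes were called at 12 h in WT cells, all lower, namely Cnot6, Cnot6l, Cnot7, Pan3 and Upf2. With WT uninjured replicate 1 left out as well, 5 genes were called, of which Cnot6, Cnot7, Pan3 and Exosc8 were lower, and without WT 48 h replicate 2 there were 17. After further quantile normalization Cnot4, Cnot6, Cnot7, Pan3, Exosc8 and Upf2 were lower, and the adjusted p of Cnot2, Cnot6l, Cnot8, Parn and Dcp2 was between 0.0756 and 0.23.

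A second list of 50 mRNA decay genes outside the 36 was described beside them, 47 of them measured. It holds the Lsm ring, exosome cofactors, further NMD factors, ribosome rescue factors and poly(A)-binding proteins. At 12 h in WT cells 13 were lower (27.7%, against 20.8% of all genes) and 6 were higher (12.8%, against 19.6%), with a median of −0.53. Among all genes with a mean of at least 4, 44.6% were lower and 3.34% were higher. The second list was not split by level, so that no excess of falls is read from its shares. The lower genes were the Lsm ring subunit Lsm3, the decapping enzyme Nudt16, the exosome cofactors C1d, Ttc37, Wdr61, Rbm7, Tent4b and Zcchc7, the NMD factors Dhx34, Pnrc2 and Rbm8a, and the ribosome rescue factors Pelo and Hbs1l. The higher genes were Lsm2, Lsm7, the scavenger decapping enzyme Dcps, the exosome helicase Skiv2l, the exon junction helicase Eif4a3 and the poly(A)-binding protein Pabpc4. In Sdc4-/- cells 4 were lower (8.51%, against 7.23% of all genes) and 2 were higher (4.26%, against 1.48%) at 12 h. The genotype difference was called as lower in WT for Ttc37, Wdr61, Pnrc2 and Hbs1l (8.51%, against 6.32% of all genes) and as higher for Nudt16, Skiv2l and Eif4a3 (6.38%, against 5.7%), shares near those of all genes. Ttc37, Hbs1l and Nudt16 already differed in uninjured cells (Sdc4-/- against WT −1.34, −1.26 and 2.37, limma adjusted p = 0.0028, 0.0382 and 0.0061). Wdr61, Pnrc2, Skiv2l and Eif4a3 were not called there.

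Promoters of the genes were read to see what the sequences share. RefSeq promoter entries on GRCm38.p6 matched 28 of the 33 genes with 35 promoters, and the 250 bases before each start were searched on both strands. The TATA box letters TATAAA were in none of the 35 and in 12.4% of 32851 promoters of all genes. The GC box GGGGCGGGG, a match for Sp and Klf factors, was in 9 of 35 (25.7%, against 10.4% of all and 13.9% of protein-coding promoters), CCAAT in 8 (22.9%, against 33.8%) and the ETS letters CCGGAAG in 5 (14.3%, against 6.91%). The median GC content was 62.4%, against 52.4% over all and 55.6% over protein-coding promoters. The median ratio of observed to expected CpG was 0.817, against 0.374 over all and 0.53 over protein-coding promoters. Of the 11 genes lower in WT cells at 12 h 9 had a promoter entry, of which Cnot4, Cnot6l, Exosc8 and Upf2 held the GC box, and these 4 sites are shown with 10 bases on either side, 5′ to 3′ on the strand of the gene, with the GC box in capitals. In all 4 it is read on the opposite strand.
Cnot4 (chr6:35133744-35133772, minus strand): cccgcccctcCCCCGCCCCgcccagccgg
Cnot6l (chr5:96162183-96162211, minus strand): cgtcccccctCCCCGCCCCccgatccgtc
Exosc8 (chr3:54735524-54735552, minus strand): cggcgccgcgCCCCGCCCCagccggcccc
Upf2 (chr2:5951358-5951386, plus strand): ctgcgctccgCCCCGCCCCcctagcagcc
These sites begin 25, 211, 178 and 101 bases before the transcript starts of the promoter entries. The entries of Cnot4, Cnot6l and Upf2 start inside the annotated gene. The site of Cnot6l lies within its gene and the stretch shown for Cnot4 reaches into its gene. Those of Exosc8 and Upf2 lie before the gene. Upf2 is shown further as an example of a CpG-rich promoter of these genes, over the 228 bases from chr2:5951219-5951446 on the plus strand that lie before any annotated gene, with 20 CpG and the GC box in capitals.
Upf2: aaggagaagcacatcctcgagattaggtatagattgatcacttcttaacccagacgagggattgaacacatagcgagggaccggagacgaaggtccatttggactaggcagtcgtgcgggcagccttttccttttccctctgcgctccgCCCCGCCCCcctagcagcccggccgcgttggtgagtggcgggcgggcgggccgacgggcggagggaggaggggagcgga
The GC box was also in promoters of Cnot10, Edc3, Smg1, Smg6 and Upf1, which were not called lower by the probe sets used. These letters were thus in called and in uncalled genes. That split is not sharp, as Edc3 had a change of −2.91 (limma adjusted p = 0.052) and dimmer Cnot10 probe sets fell. A match is a description of letters and not of a bound site.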

How the data were processed

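Microarray values of FACS-isolated satellite cells were analysed as deposited. The authors scanned Affymetrix mouse genome arrays, processed them with GCOS and GCRMA (versions not given in the sources used here) and deposited log2 values for 45101 probe sets on 18 arrays. Symbols came from the platform annotation (34958 probe sets with 1 symbol, 932 with several, 9211 with none) and were not updated. The authors' text does not number the uninjured WT array they removed, and replicate 3 was taken because their dendrogram shows replicates 1 and 2.

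A model of 6 group means was fitted to all probe sets on 17 arrays (limma 3.58.1, R 4.3.3, lmFit and eBayes, 11 residual and 1.2 prior degrees of freedom), with Benjamini-Hochberg adjustment per comparison. The number of arrays limits the precision. The 8 comparisons were each time against uninjured within a genotype, WT 48 h against 12 h, uninjured genotypes, and the genotype difference in each change (WT minus Sdc4-/-). Comparisons that share a group share its arrays. The fit was tested on simulated data. Tried besides were a fit of all 18 arrays, of the compared groups alone, a trended and robust prior, further quantile normalization, a shift to a common 75th percentile, a mean of at least 4, the average over a gene's probe sets, the study's kind of threshold, hybridization controls as a covariate, a replicate block and each array left out.

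The genes, lists and tests were chosen with earlier results of these data known. Values on every array are given for the 2 called genes with the smallest adjusted p of each role (or the highest mean), genes with a called genotype difference and called rises above a level of 4. Paralogue pairs are set side by side, and other genes named with values were chosen after these were seen.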

Additional observations from a re-analysis of the deposited data

Results flagged for a closer look

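The 12 h change differed between genotypes, by a test of the difference itself, for Cnot7 (−2.89 on the log2 scale, WT minus Sdc4-/-, limma adjusted p = 0.00407) and Pan3 (−3.52, adjusted p = 0.00115). All 3 WT 12 h arrays lay below all 3 Sdc4-/- 12 h arrays for both genes. Groups of 3 arrays were not searched by a fixed rule for single arrays that stand apart. The arrays so described above were read from the values.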

How the results depend on the processing

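Counts below are called genes of the 33. With all 18 arrays the WT 12 h count went from 14 to 5, Sdc4-/- 12 h from 3 to 0, WT 48 h from 1 to 0, WT 48 h against 12 h from 6 to 3, and the genotype difference at 12 h from 2 to 1. With the hybridization-control covariate these were 0 (WT 12 h), 0 (WT 48 h), 2 (48 h against 12 h) and 0 (genotype difference at 12 h), while the WT 12 h changes of Cnot7 and Pan3 were −4.44 and −4.35 and the WT 48 h change of Cnot6l was −4.17. The control level did not overlap between the WT groups, so that this fit can hardly tell it from the time after injury. Further quantile normalization gave 8 (WT 12 h, 6 lower and 2 higher), 2 (WT 48 h), 4 (genotype difference at 12 h) and 2 (at 48 h). The shift to a common 75th percentile gave 8 (Sdc4-/- 12 h, 3 lower and 5 higher), 7 (WT 48 h, 1 lower and 6 higher) and 1 (Sdc4-/- 48 h), and it moved the median change of all genes by 0.21, 0.34, 0.32 and 0.14 in WT 12 h, Sdc4-/- 12 h, WT 48 h and Sdc4-/- 48 h. Only the groups compared gave 3 (WT 48 h), 2 (Sdc4-/- 48 h), 2 (48 h against 12 h) and 2 (genotype difference at 48 h), the mean of all probe sets 3 (WT 48 h), 1 (uninjured genotypes) and 1 (genotype difference at 48 h), the study's kind of threshold 9 (WT 12 h) and 1 (genotype difference at 48 h), and the trended prior 2 (WT 48 h). The cause was not tested. With each array left out the counts ran from 5 (without WT uninjured replicate 1) to 17 (without WT 48 h replicate 2) for WT 12 h, 0 (without Sdc4-/- uninjured or 12 h replicate 1) to 5 for Sdc4-/- 12 h, 0 (without WT uninjured replicate 1) to 3 for WT 48 h, 3 to 7 for 48 h against 12 h, 2 to 3 for the genotype difference at 12 h, and 0 to 1 for Sdc4-/- 48 h, the uninjured genotypes and the genotype difference at 48 h. A single gene changed sign with a call in 3 cases: Cnot10 with the mean of all probe sets (−0.79 in WT 48 h and −0.86 in uninjured Sdc4-/- against WT) and Upf1 with the covariate (−0.75 in WT 12 h). The replicate block gave 11 called genes in WT 12 h (9 lower and 2 higher), 2 in Sdc4-/- 12 h and 4 in WT 48 h against 12 h. The labels do not say whether equal replicate numbers pair samples, and deviations from means of 2 or 3 arrays cannot decide it. Of 40 pairs of arrays with the same number in different groups 2 had a correlation of deviations over 0.1 (median −0.011). Of 80 pairs with different numbers 3 had one (median 0.005), and 6 of 17 arrays correlated best with their own number.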
